A study of Homo sapiens with 6 samples.

Results

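The 7 genes described here encode the glycosyltransferases that make the blood group H, A, B and Sda determinants and the type 1 chains that carry some of them: FUT1, FUT2, ABO, B3GALT1, B3GALT2, B3GALT5 and B4GALNT2. They were chosen by name, and all 7 were on the array, each with 1 probe set, out of 927 named genes and 1259 probe sets in all. Their levels were measured in the human colon cancer line HCT-15, in 2 groups of 3 arrays each. The treated cells had received the nucleoside 5-aza-2'-deoxycytidine, which traps DNA methyltransferases once it has entered newly made DNA, so that methylation marks are lost as cells divide. The untreated cells of the same line had not. No source used here gives the dose or the duration. Since none says whether replicates were separate cultures, the p-values cover only the spread between these arrays, which may be technical. A single cell line is a model of 1 tumour. The question put by the submitters was which glycan genes respond when the drug raises the cells' surface sialyl Lewis x, a ligand of E-selectin.

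Untreated replicate 3 has labels in conflict: it was grouped by its source name and treatment entry, both of which say untreated, although its title says treated. For the 7 genes and FGF21, changes without it are given beside the results. Without it 26 pathway genes were called, 13 up and 13 down, and the 9 genes named from the pathway lists by rule kept their calls. Array medians lay between 5.81 and 5.92 on the log2 scale, and arrays correlated at 0.997 or more within a group and at 0.982 to 0.984 across groups. Of 14 markers of colon epithelium, 3 were measured. LGALS4, a galectin of the gut epithelium, had log2 levels of 8.97 to 9.13 in treated cells and 9.50 to 9.58 in untreated cells, and MUC13, an epithelial mucin, averaged 8.93 in treated cells and 7.97 in untreated cells. MUC2, the mucin of goblet cells, lay between 5.45 and 5.75 over all arrays. Of 11 markers of leukocytes, endothelium and stroma, 3 were measured, and the stromal DCN and LUM lay between 2.37 and 2.89 over all arrays, near the lowest value in the table (2.13). The endothelial PECAM1 passed the test upward, with 5.10 to 5.41 in treated cells and 4.87 to 5.14 in untreated cells, and its part in the results was not tested.

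Galactose at the end of a lactosamine chain can be capped in several ways. FUT1 and FUT2 add an α1,2-linked fucose and form the H antigen, which the ABO enzyme extends to A or B. The α2,3-sialyltransferases use the same galactose for sialyl Lewis x, so H and sialyl Lewis x exclude each other on 1 chain. B3GALT1, B3GALT2 and B3GALT5 add galactose in β1,3 linkage and so build type 1 chains, on which sialylation and fucosylation give sialyl Lewis a and not sialyl Lewis x. B4GALNT2 adds N-acetylgalactosamine to an α2,3-sialylated galactose and forms Sda, an antigen of normal colon mucosa. Loss of B4GALNT2 with methylation of its promoter has been described in cancers of the gastrointestinal tract.

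Because the drug leads to a loss of cytosine methylation, which lies mostly in CG dinucleotides, promoter windows are shown for the genes the results turn on. These are FUT2 and FUT1, which passed the test, and B4GALNT2, whose promoter methylation has been described in gastrointestinal cancers but was not measured here. Windows run from 250 bases before to 50 bases after an annotated start (RefSeq, GRCh38.p14). A promoter was found for 6 of the 7 genes, 9 in all, with ABO the gene not matched. They read 5′ to 3′ on the gene's strand, with each CG in capitals.
FUT2 (chr19:48695721-48696020, plus strand): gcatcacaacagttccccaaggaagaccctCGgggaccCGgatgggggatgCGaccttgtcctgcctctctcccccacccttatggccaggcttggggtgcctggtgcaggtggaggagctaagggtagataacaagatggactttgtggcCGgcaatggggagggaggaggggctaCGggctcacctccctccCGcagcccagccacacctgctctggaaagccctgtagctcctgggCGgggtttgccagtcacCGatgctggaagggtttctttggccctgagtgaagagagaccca
FUT1, upstream start (chr19:48755309-48755608, minus strand): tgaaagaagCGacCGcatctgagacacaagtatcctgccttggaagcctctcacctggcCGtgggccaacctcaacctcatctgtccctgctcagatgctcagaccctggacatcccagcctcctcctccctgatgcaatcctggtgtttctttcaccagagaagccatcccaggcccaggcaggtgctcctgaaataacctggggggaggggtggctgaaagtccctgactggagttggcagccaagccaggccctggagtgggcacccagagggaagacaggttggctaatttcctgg
FUT1, downstream start (chr19:48752592-48752891, minus strand): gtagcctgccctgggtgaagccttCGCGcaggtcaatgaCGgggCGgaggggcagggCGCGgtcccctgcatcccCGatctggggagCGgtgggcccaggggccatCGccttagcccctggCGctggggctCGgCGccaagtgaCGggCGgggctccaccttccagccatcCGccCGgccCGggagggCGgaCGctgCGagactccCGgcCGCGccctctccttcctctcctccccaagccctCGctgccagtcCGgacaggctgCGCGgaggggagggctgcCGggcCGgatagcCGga
B4GALNT2, upstream start (chr17:49132210-49132509, plus strand): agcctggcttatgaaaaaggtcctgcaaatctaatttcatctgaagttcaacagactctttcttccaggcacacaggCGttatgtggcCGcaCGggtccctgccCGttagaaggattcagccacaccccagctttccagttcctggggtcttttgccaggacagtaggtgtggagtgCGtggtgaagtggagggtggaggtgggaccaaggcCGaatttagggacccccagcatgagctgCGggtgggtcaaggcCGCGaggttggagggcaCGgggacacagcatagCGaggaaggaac
B4GALNT2, downstream start (chr17:49132519-49132818, plus strand): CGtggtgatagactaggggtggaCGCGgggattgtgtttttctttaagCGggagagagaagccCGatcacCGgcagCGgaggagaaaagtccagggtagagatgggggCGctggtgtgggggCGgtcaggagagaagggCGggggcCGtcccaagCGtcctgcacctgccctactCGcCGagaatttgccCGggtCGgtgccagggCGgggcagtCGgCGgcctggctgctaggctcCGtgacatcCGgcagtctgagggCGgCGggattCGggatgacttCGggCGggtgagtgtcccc

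The FUT2 window held 8 CG dinucleotides, and 60.7% of the 35116 promoters of this length held as many or more. The FUT1 windows differed, with 3 CGs at the upstream start and 30 at the downstream start (81.8% and 22.4% of promoters held as many or more). The B4GALNT2 windows held 11 and 26. For comparison, the B3GALT5 windows held 35 and 3, that of B3GALT1 held 30 and that of B3GALT2 held 3. The median over all promoters was 14, and over the 1027 promoters of genes on the array it was 20. The hexamer GGGCGG, the GC box to which Sp1-type factors bind, or CCGCCC on the other strand, occurred 4 times in the downstream FUT1 window, 5 times in the downstream B4GALNT2 window, 2 times in 1 B3GALT5 window and 1 time in the FUT2 window, and 45.0% of all promoters held it. Each match contains 1 of the CGs already counted. These are counts of letters: no methylation was measured in the data used here, and which start is used in HCT-15 is not known from them.

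**Figure D1:**
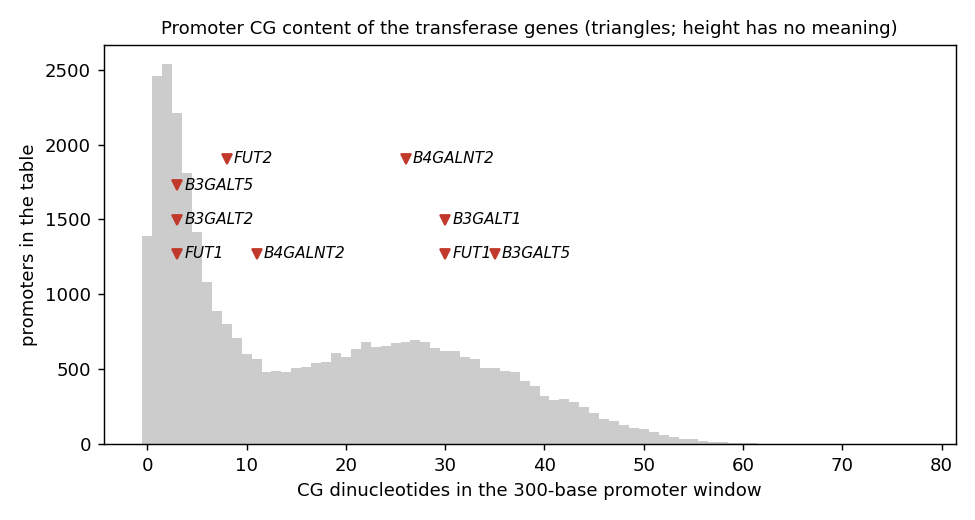
Grey bars give the number of RefSeq promoters (y axis) by the number of CG dinucleotides in the 300-base window (x axis), and triangles mark the 9 windows of 6 transferase genes at their CG count. FUT2 sits at 8, while FUT1 and B3GALT5 each have 1 window low and 1 window high in CG. The B4GALNT2 windows sit at 11 and 26, against a median of 14 over all promoters.

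FUT2, an H transferase, was 1.88-fold lower in treated cells, with no overlap between the groups. FUT1, the other H transferase, was 1.28-fold lower, with overlapping groups and a call that was lost in 6 of 14 alternatives. None of the 7 genes passed the test upward. By limma with Benjamini-Hochberg adjustment over all 1259 probe sets, these 2 genes passed an adjusted p under 0.05, both downward, and 0 of the 7 passed upward. At an unadjusted p under 0.05 there were 3 falls, with ABO the added gene, and 0 rises. The share of all probe sets at that unadjusted threshold was not counted, so these 3 have no background here. At the adjusted threshold 34.8% of all probe sets passed in either direction, 16.8% downward and 18.0% upward. So 2 of 7 called is near the background of this array. The median log2 change over all probe sets was -0.01.

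FUT2, which makes H on secreted glycans and in the gut epithelium, had log2 levels of 7.20, 7.20 and 7.33 in the treated arrays, against 8.25, 8.29 and 7.92 in the untreated arrays. All treated arrays lay below all untreated ones, with a gap of 0.58 between the groups, while over the whole table the groups were separate in 46.1% of probe sets, and in 23.4% with the treated arrays lower. FUT2 was the 1 gene of the 7 with separate groups. The log2 change was -0.91 ± 0.10 (SE, 95% interval -1.14 to -0.68, adjusted p = 4.69e-05, limma). It ranked as number 23 among the falls of all 1259 probe sets. The mean was 7.24 ± 0.08 in treated cells and 8.15 ± 0.21 in untreated cells (SD, n = 3 each). Without untreated replicate 3, the lowest of its group, the change was -1.03. The name of this probe set marks it as able to match more than 1 transcript, which makes its value less certain.

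FUT1, which makes H on red cell precursors and in other tissues, had log2 levels of 8.40, 8.31 and 8.62 in the treated arrays and 9.02, 8.81 and 8.56 in the untreated arrays. The groups overlapped: treated replicate 3 lay above untreated replicate 3, while every other treated array lay below every untreated one. The log2 change was -0.36 ± 0.12 (SE, 95% interval -0.62 to -0.09, adjusted p = 0.0404, limma). The mean was 8.44 ± 0.16 in treated cells and 8.80 ± 0.23 in untreated cells (SD, n = 3 each). Of all probe sets, 94.3% had a within-group SD at or below that of FUT1. Without untreated replicate 3 the change was -0.47 (adjusted p = 0.00759, limma). Without treated replicate 1, treated replicate 2, untreated replicate 1 or untreated replicate 2 the call was lost, with changes from -0.35 to -0.24 (adjusted p = 0.108 to 0.149, limma).

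The log2 change was then compared between the probe sets of the 2 H transferases, a comparison added after the data were seen. On each array FUT2 was set against FUT1, and this log2 difference was -1.20 on average in treated cells and -0.65 in untreated cells. The shift of -0.55 (also -0.55 without untreated replicate 3) separated the groups without overlap. An exact permutation test over the arrays gave p = 0.1 (two-sided), the smallest that 3 against 3 arrays allow. The same values prompted the comparison, so this p is a description only. Each probe set has its own sensitivity, so the shift does not show which transcript fell more. FUT1 and FUT2 lie near each other on chromosome 19. The protein-coding genes between them, MAMSTR, RASIP1 and IZUMO1, were not on the array. FGF21, a metabolic hormone gene, is next to FUT1 on the side away from FUT2. It had log2 levels of 5.14, 5.09 and 5.14 in treated cells and 4.96, 5.07 and 5.04 in untreated cells. FGF21 did not pass the test (log2 change 0.10 ± 0.07 SE, adjusted p = 0.304, limma). Without untreated replicate 3 its change was 0.11.

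**Figure D2:**
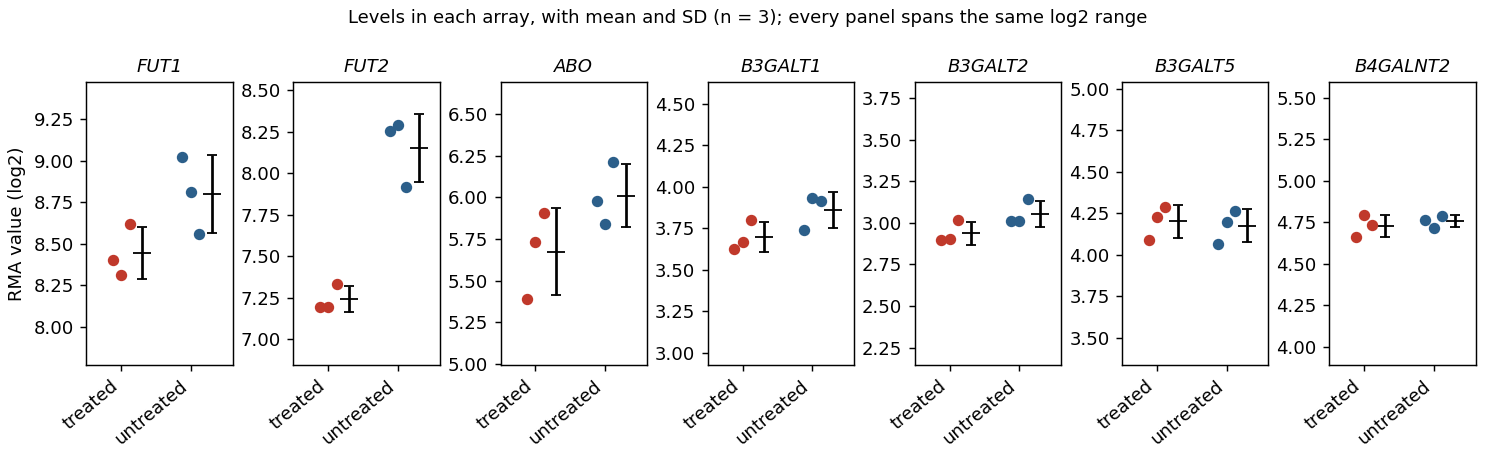
Each panel shows 1 gene, with the RMA value (log2, y axis) of each of 3 treated arrays (red, left) and 3 untreated arrays (blue, right), and black bars for the mean and SD. FUT2 is the gene whose treated arrays (7.20 to 7.33) all lie below its untreated arrays (7.92 to 8.29).

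ABO, whose enzyme adds N-acetylgalactosamine or galactose to H depending on the allele, had log2 levels of 5.39, 5.73 and 5.91 in the treated arrays and 5.98, 5.84 and 6.21 in the untreated arrays. The groups overlapped, since treated replicate 3 exceeded untreated replicate 2. The log2 change of -0.34 ± 0.13 (SE, 95% interval -0.63 to -0.04) did not pass (adjusted p = 0.0777, limma). The SD was 0.26 in treated cells and 0.19 in untreated cells (n = 3 each), and 97.2% of probe sets had a within-group SD at or below that of ABO. ABO passed without treated replicate 3 (-0.45, adjusted p = 0.0281, limma). Its change was -0.24 without untreated replicate 3 (adjusted p = 0.234, limma) and -0.19 without treated replicate 1, its lowest array (adjusted p = 0.279, limma). The probe set gives a level for the gene and does not tell the A, B and O alleles apart.

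The type 1 chain galactosyltransferases had low values, and none passed the test. B3GALT5, the main type 1 chain enzyme of colon epithelium, had log2 levels of 4.09, 4.23 and 4.29 in treated cells and 4.07, 4.20 and 4.26 in untreated cells. The groups lay on top of each other, with a log2 change of 0.03 ± 0.08 (SE, adjusted p = 0.876, limma) that turned to -0.12 after quantile normalization and -0.042 after centring on array medians. Without untreated replicate 3 it was 0.069. Its 95% interval runs from 0.897-fold to 1.15-fold.

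B3GALT1, a relative that acts on the same kind of acceptor, had 3.62, 3.67 and 3.80 in treated cells and 3.74, 3.93 and 3.91 in untreated cells. Treated replicate 3 lay above untreated replicate 1, and the log2 change of -0.17 ± 0.08 (SE, 95% interval -0.35 to 0.02) did not pass (adjusted p = 0.153, limma). After quantile normalization it did, with a change of -0.29 (adjusted p = 0.0153, limma). Without untreated replicate 3 the change was -0.14. B3GALT2, the third relative, had 2.90, 2.90 and 3.02 in treated cells and 3.01, 3.01 and 3.14 in untreated cells. The log2 change was -0.12 ± 0.07 (SE, 95% interval -0.28 to 0.05, adjusted p = 0.275, limma). It was -0.18 after centring on array medians and -0.072 without untreated replicate 3.

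B4GALNT2, the Sda synthase, did not pass the test. Its log2 levels were 4.66, 4.79 and 4.73 in treated cells and 4.76, 4.72 and 4.79 in untreated cells. The log2 change was -0.03 ± 0.07 (SE, 95% interval 0.881-fold to 1.09-fold, adjusted p = 0.827, limma). RMA compresses differences at dim probe sets such as that of B4GALNT2, so the interval does not limit the change in the transcript. The change was -0.12 after quantile normalization (adjusted p = 0.146, limma), -0.095 after centring on array medians and -0.012 without untreated replicate 3. The spread within groups was small (SD 0.06 in treated cells and 0.04 in untreated cells, n = 3 each).

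The levels of different genes cannot be set in order, since each probe set has its own sensitivity, and a dim probe set can hide a change because RMA compresses differences near the background. The position of each probe set in the table is given for that reason. By mean over the 6 arrays, FUT1 equalled or exceeded 80.5% of all probe sets, FUT2 71.1% and ABO 49.2%. The share was 30.9% for B4GALNT2, 22.6% for B3GALT5, 16.9% for B3GALT1 and 5.32% for B3GALT2. The last 4 lie below the mean level of 4.90 at which a filter on dim probe sets was set (839 probe sets stayed), so 3 of the 7 genes passed it. In bulk RNA, fewer cells with a transcript and less transcript per cell cannot be told apart.

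**Figure D3:**
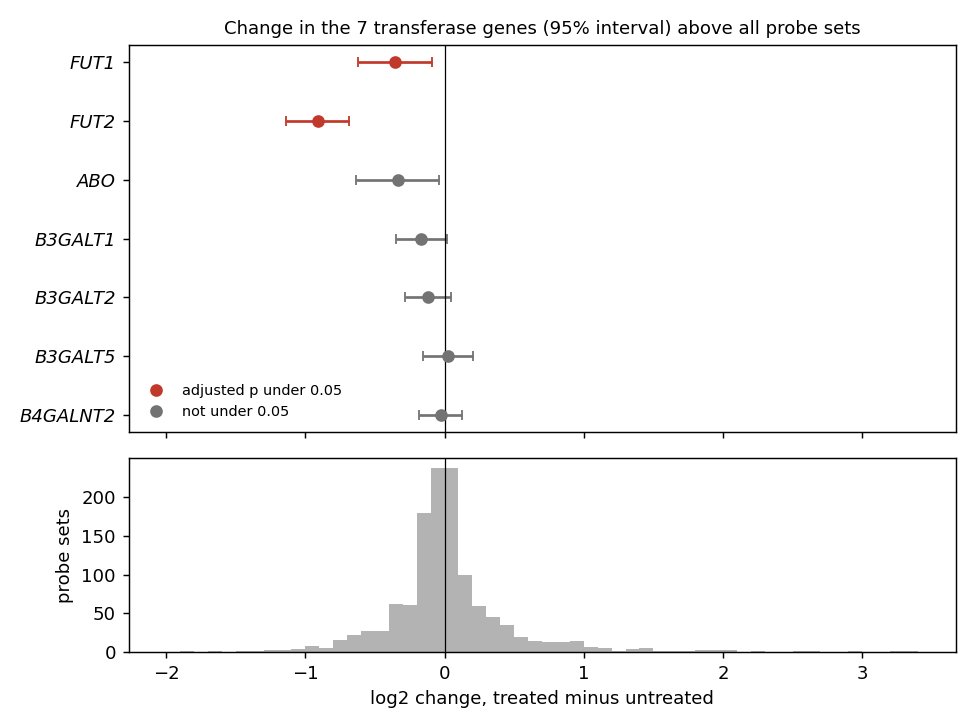
The upper panel gives the log2 change, treated minus untreated (x axis), of each of the 7 genes with its 95% interval from limma, in red where the adjusted p was under 0.05, and the lower panel gives the number of probe sets by the same change over the whole table. FUT2 lies at -0.91, out in the lower tail. FUT1 (-0.36) and ABO (-0.34) rank as number 149 and 162 among the falls of all probe sets, against number 23 for FUT2. The other 4 genes lie within 0.17 of 0.

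The genes that supply, use or compete for the same chains were read from 8 lists with 57 genes, of which 53 were measured. Of these, 12 rose and 13 fell (47.2% called, median log2 change -0.01). After centring on array medians 11 rose and 19 fell. Over all probe sets 34.8% were called, a share that includes dim probe sets and every probe set of a gene. A listed gene counts once, by its brightest probe set, so the 2 shares are not on the same basis. With the filter on dim probe sets, 360 of the 839 that stayed were called. Whether the listed genes were called more often than probe sets of like brightness was not tested.

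Relatives of the 7 genes went both ways. Among 6 genes related to the β1,3-galactosyltransferases 2 rose and 2 fell. B3GALT6, which builds the linkage region of glycosaminoglycans, was 1.71-fold lower (log2 levels 6.97, 7.03 and 6.95 in treated cells, against 7.94, 7.71 and 7.63 in untreated cells, adjusted p = 4.88e-05, limma). C1GALT1, which makes the core 1 structure of O-glycans, was 1.63-fold higher (5.46, 5.44 and 5.16 in treated cells, against 4.52, 4.80 and 4.63 in untreated cells, adjusted p = 0.000291, limma). Of the 3 relatives of B4GALNT2, 0 passed: B4GALNT1, the GM2 ganglioside synthase, had a log2 change of 0.14 ± 0.07 (SE), B4GALNT3 one of -0.01 ± 0.08 and B4GALNT4 one of -0.02 ± 0.09. At an unadjusted p under 0.05 likewise 0 of the 3 passed, a threshold at which the share of all probe sets was not counted. Of the family of ABO, GBGT1, the gene of the Forssman synthase, was the 1 of 3 measured, and its log2 change was 0.04 ± 0.08 (SE, adjusted p = 0.767, limma).

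Of 16 genes that build the chains to which H, Lewis and Sda sugars are added, 5 rose and 4 fell. B3GNT2, which extends polylactosamine, was 1.87-fold higher in treated cells (7.99, 7.97 and 7.72, against 6.92, 7.08 and 6.98 in untreated cells). GCNT1, which forms the core 2 branch, was 1.64-fold lower (5.98, 5.78 and 5.92 in treated cells, against 6.63, 6.80 and 6.38 in untreated cells). The groups did not overlap in either gene, and the GCNT1 probe set can match more than 1 transcript. The rises in this list include GCNT2 and GCNT3, with log2 changes of 0.25 ± 0.08 and 0.54 ± 0.09 (SE), opposite in direction to GCNT1.

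Of 7 genes listed for Lewis-type fucosylation 0 rose and 1 fell. That gene was FUT3, the Lewis enzyme, which can fucosylate type 1 and type 2 chains and was 1.43-fold lower (5.92, 5.62 and 6.09 in treated cells, against 6.37, 6.51 and 6.29 in untreated cells, adjusted p = 0.00485, limma). A further FUT3 probe set fell by 0.56 ± 0.09, and FUT3, FUT5 and FUT6 are close paralogs whose probes may share signal. At an unadjusted p under 0.05 there were 0 rises and 3 falls in this list, with FUT4 and FUT7 added. The share of all probe sets at that threshold was not counted. POFUT4 stands in this list under its older symbol FUT11 and is now annotated as a protein O-fucosyltransferase.

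Of 6 sialyltransferase genes 3 rose and 1 fell. The list holds ST3GAL1, 1 of the 3 rises, and ST3GAL2, which act mainly on the galactose of core 1 and of gangliosides and not on that of lactosamine chains. ST6GAL1, whose α2,6-linked sialic acid also blocks α1,2-fucosylation, was 1.62-fold higher (5.27, 4.98 and 5.09 in treated cells, against 4.37, 4.45 and 4.45 in untreated cells). ST3GAL3, which prefers type 1 chains, was 1.70-fold lower (6.05, 5.78 and 5.84 in treated cells, against 6.70, 6.74 and 6.51 in untreated cells). In both genes the treated and untreated arrays were separate.

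Of 10 measured genes for the making and transport of donor sugars, by their brightest probe sets, 0 rose and 5 fell (median log2 change -0.37), with 0 rises at an unadjusted p under 0.05. Over all probe sets 16.8% fell and 18.0% rose at an adjusted p under 0.05. For the unadjusted threshold that share was not counted, so the 0 rises there have no background here. SLC35A2, the Golgi transporter of UDP-galactose, had 4 probe sets; its brightest had a log2 change of 0.14 ± 0.07 (SE) and did not pass, while its dimmest rose by 0.30 ± 0.08 (adjusted p = 0.013, limma). GMDS, the first enzyme of GDP-fucose synthesis, was 1.78-fold lower (7.86, 7.91 and 7.78 in treated cells, against 8.73, 8.72 and 8.59 in untreated cells, adjusted p = 9.04e-06, limma). FPGT, of the fucose salvage route, and SLC35C1, the Golgi transporter of GDP-fucose, also fell, with log2 changes of -0.58 ± 0.07 and -0.55 ± 0.10 (SE). GALT (-0.69 ± 0.07) and GALK1 (-0.43 ± 0.11), which bring galactose into UDP-galactose, were the other 2. GFUS, the second enzyme from GDP-mannose to GDP-fucose, had a log2 change of -0.10 ± 0.13 (SE) and did not pass. Of 4 measured glycosidase genes that remove these sugars 2 rose and 0 fell. FUCA1, the lysosomal fucosidase, was 1.41-fold higher (9.87, 9.90 and 9.71 in treated cells, against 9.27, 9.47 and 9.27 in untreated cells), and GLA, the lysosomal α-galactosidase, rose by 0.49 ± 0.07 on the log2 scale. SLC35A2, FPGT, SLC35C1, GALT, GALK1, GFUS, GLA, GCNT2 and GCNT3 were named after their values were seen.

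**Figure D4:**
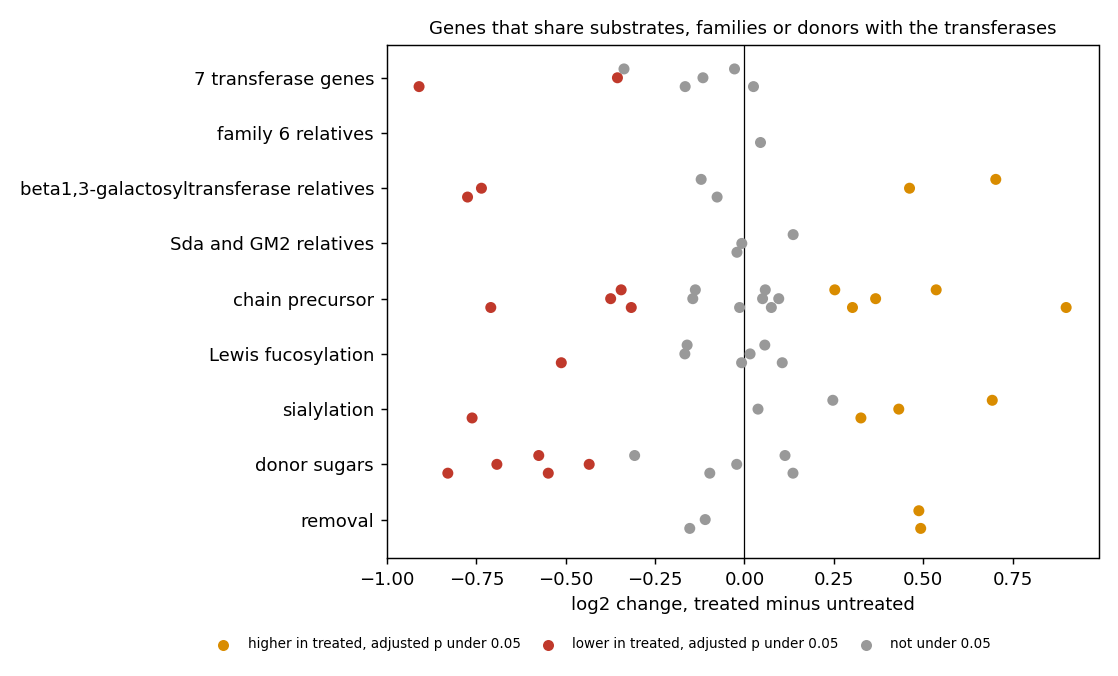
Each point is 1 gene, placed by its log2 change, treated minus untreated (x axis), in rows for the 7 transferase genes and the 8 lists (small vertical offsets have no meaning), with orange for called rises, red for called falls and grey for genes not called. The row of the 7 transferases and the rows of Lewis fucosylation and donor sugars hold no orange point. Neither do the rows of family 6 relatives and of Sda and GM2 relatives, in which no gene was called. Chain precursor genes and sialyltransferases lie on both sides.

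Over the 6 arrays, the genes with values most like those of FUT2 were B3GNT4 (Pearson r = 0.9986), VEGFB (0.9909), ALG9 (0.9904), FZD7 (0.9897) and HS3ST1 (0.9893). These r values are a description over 6 arrays in 2 groups, and the difference between the groups, which all 5 share with FUT2, raises them. B3GNT4, which adds N-acetylglucosamine to lactosamine chains, was 1.27-fold lower in treated cells, and FZD7, a Wnt receptor, and HS3ST1, a heparan sulfate sulfotransferase, were each 2.28-fold lower. The growth factor gene VEGFB and the mannosyltransferase gene ALG9 were 1.69-fold and 1.67-fold lower.

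**Figure D5:**
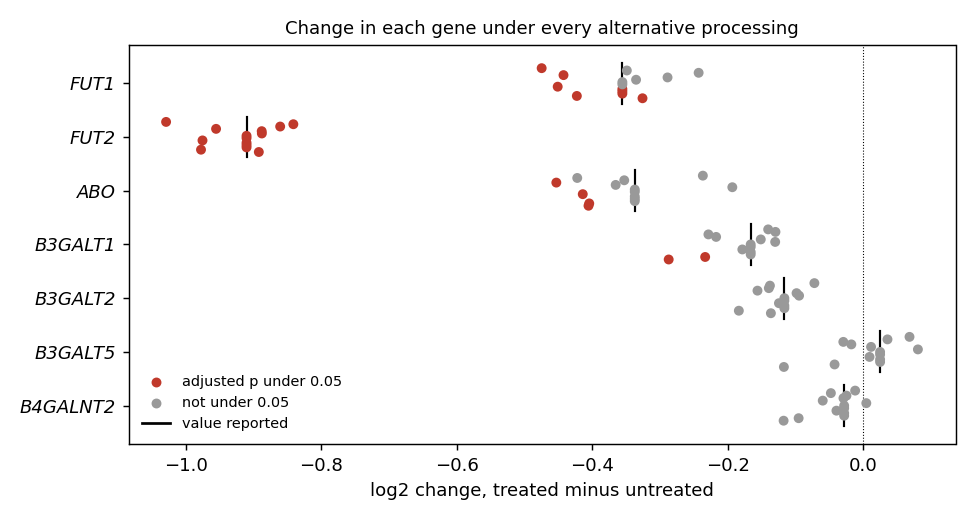
For each gene (rows), points give the log2 change, treated minus untreated (x axis), under each alternative processing, red where the adjusted p was under 0.05 and grey where not, and the black line marks the value reported. FUT2 stays between -1.03 and -0.84 with every point red, while FUT1 and ABO each have points of both colours.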

How the data were processed

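Trizol-extracted total RNA was made into biotinylated cRNA for Affymetrix arrays, per the labels' protocols. What the authors deposited is a table of log2 values, 1259 probe sets by 6 arrays. The submitters' processing notes name RMA; settings, array platform and genome build are not stated in the sources used. The log2 scale was inferred from the range, 2.13 to 13.67. The scanner files were not used here. The number of arrays limits the precision.

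Unversioned RefSeq identifiers in probe set names were looked up in RefSeq's genes (GRCh38.p14), which named 1043 probe sets and 927 genes. A gene was represented by its brightest probe set. limma 3.58.1 in R 4.3.3 (lmFit, eBayes, two-sided, Benjamini-Hochberg over all 1259) compared treated with untreated arrays, 3 each, without a filter. The steps were tested on simulated data. The genes and lists were chosen with earlier results of these data known. Named were the 7 genes, the called gene with the largest change in each direction in each list, and the 5 genes most like the one of the 7 that changed most. The comparison of FUT2 with FUT1 and the values of FGF21 were added after the data were seen. Alternatives were 2 scalings, a filter on dim probe sets, 2 eBayes priors, array weights, a replicate block, an ordinary linear model, other thresholds, an exact permutation test and leaving out each array.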

Additional observations from a re-analysis of the deposited data

How the results depend on the processing

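FUT2 passed in all 14 alternatives fitted with a linear model, with log2 changes from -1.03 to -0.84. FUT1 passed in 8 of 14 and ABO in 4 of 14, all with a fall. The number of the 7 genes called, 2 in the main setting, was 4 after quantile normalization and 4 after median centring, 1 with the replicate block, 1 in the ordinary linear model, 1 at an adjusted p under 0.01, and 1 to 3 with an array left out, all falls. The FUT1 change of -0.36 missed the threshold with the block (adjusted p = 0.106) and in the ordinary linear model (adjusted p = 0.207). With an array left out it ranged from -0.47 to -0.24. In the exact permutation test FUT1 (-0.36) gave p = 0.2 and FUT2 (-0.91) p = 0.1, the smallest it allows. ABO passed after quantile normalization (-0.41, adjusted p = 0.0395), after median centring (-0.40, adjusted p = 0.0319) and with array weights (-0.41, adjusted p = 0.0223), and ranged from -0.45 to -0.19 with an array left out. B3GALT1 passed after quantile normalization (-0.29) and median centring (-0.23, adjusted p = 0.0487). B3GALT5 turned to -0.12 after quantile normalization and -0.042 after median centring, and ranged from -0.029 to 0.081 with an array left out, and B4GALNT2 from -0.060 to 0.0048. Without a call, B4GALNT2 moved to -0.12 and -0.095 in the 2 scalings, and B3GALT2 (-0.12) to -0.14 and -0.18. Median centring moves the change of every gene by the same amount, and the median change over all probe sets went from -0.01 to -0.08. After quantile normalization, which moved genes by different amounts, that median was -0.05, and the cause was not tested. The replicate numbers did not pair the arrays (correlations of deviations of same-numbered arrays -0.27, 0.04 and -0.11). Probe sets called numbered 438, with 227 rises and 211 falls. After quantile normalization 220 rose and 265 fell, and after median centring 197 rose and 311 fell. So the 4 calls among the 7 genes in each scaling came with more falls over the whole table. With the block 394 were called (209 rises and 185 falls). In the ordinary linear model 180 rose and 164 fell, and at an adjusted p under 0.01 177 rose and 153 fell. Of the 9 other named pathway genes, FUT3 alone lost its call, in the ordinary linear model. Dim probe sets limit what can be seen for B3GALT1, B3GALT2, B3GALT5 and B4GALNT2.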
